A study of Mus musculus with 6 samples.

Results

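The chemokines and their receptors were followed in mouse teratomas that had been injected either with a mimic of the microRNA miR-124a-3p or with a negative control microRNA. Their genes were taken by symbol from the array (names starting with Ccl, Cxcl, Ccr or Cxcr and a number, with Cx3cl1, Cx3cr1, Xcl1 and Xcr1), which gave 54 genes with 75 probes among 37008 named genes. They were 36 ligand and 18 receptor genes. The 6 tumours, 3 per group, each came from a different animal, grew from mouse embryonic stem cells placed under the skin of BALB/c nude mice, and are called control 1 to 3 and miR-124a 1 to 3. Both groups had microRNA in complexes with the carrier Atelogen at 15 µg per 100 µL, given into the tumour every 3 days to day 28 and begun near day 10, at a volume of at least 100 mm3. The labels do not name the line or strain of the stem cells. RNA came from 1 of the 2 pieces into which each tumour was cut.

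Chemokines are small secreted proteins that direct the movement of cells, above all of leukocytes, through receptors that signal by G proteins of the inhibitory class. They are grouped by the spacing of their first cysteines into CC, CXC, CX3C and XC families. Some, such as Cxcl12, are made steadily and guide stem cells and developing tissue, while others, such as Cxcl10, are switched on by interferons or by inflammatory cytokines. Nude mice have no thymus and so make few mature T cells, but keep macrophages, neutrophils and natural killer cells. A teratoma in such a host holds both graft and host tissue, and an array does not separate their transcripts.

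Values are log2 of the deposited spot intensity minus the 75th percentile of the same array, so that 0 is the level of that percentile and a difference of 1 is a doubling. On each array 63.4% to 65.9% of the probes exceeded background clearly, called above background from here, and 0 spots were saturated. The number of arrays limits the precision. The 6 arrays shared a slide, with the control tumours in one row of it and the miR-124a tumours in the other, so group and slide row cannot be told apart. Marker genes of nerve, skeletal muscle and surface epithelium, tissues that a teratoma can form, were tested for 12 of 12 genes in each list, and 11 of the 12 skeletal muscle genes fell with miR-124a (limma, median log2 fold change -1.64). The muscle count was 10 when miR-124a 3 was left out, 8 when control 3 was, and 0 when any of the other 4 tumours was, with medians of -1.83 to -1.44. With the replicate block 0 passed, and with no filter on dim probes 1 passed.

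No chemokine or receptor gene passed the threshold (limma, adjusted p under 0.05 over 22946 genes): the count was 0 of 34 tested members, beside 3.27% of all tested genes (0.488% higher and 2.78% lower with miR-124a). At an unadjusted p under 0.05 there were 4 of 34 members (limma), namely Ccl27a, Ccl20, Cxcl5 and Cxcr2, against 27.4% of all genes. In 3 members, Ccl27a, Ccl20 and Cxcr2, no value of one group reached the range of the other, which is 8.82% of the tested members and compares with 35.6% of all genes (14.9% higher and 20.7% lower). Of these, Cxcr2 was tested because of the control group, where it was higher. The estimates fell about evenly on both sides of 0, with 16 positive and 18 negative, and 49.6% of all genes were positive. The median log2 fold change was -0.06 for the members, -0.10 for the 27 tested ligands and 0.10 for the 7 tested receptors, beside -0.0036 for all genes. The ligand median was 0.10 without control 1 and the receptor median -0.16 without miR-124a 3.

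**Figure D1:**
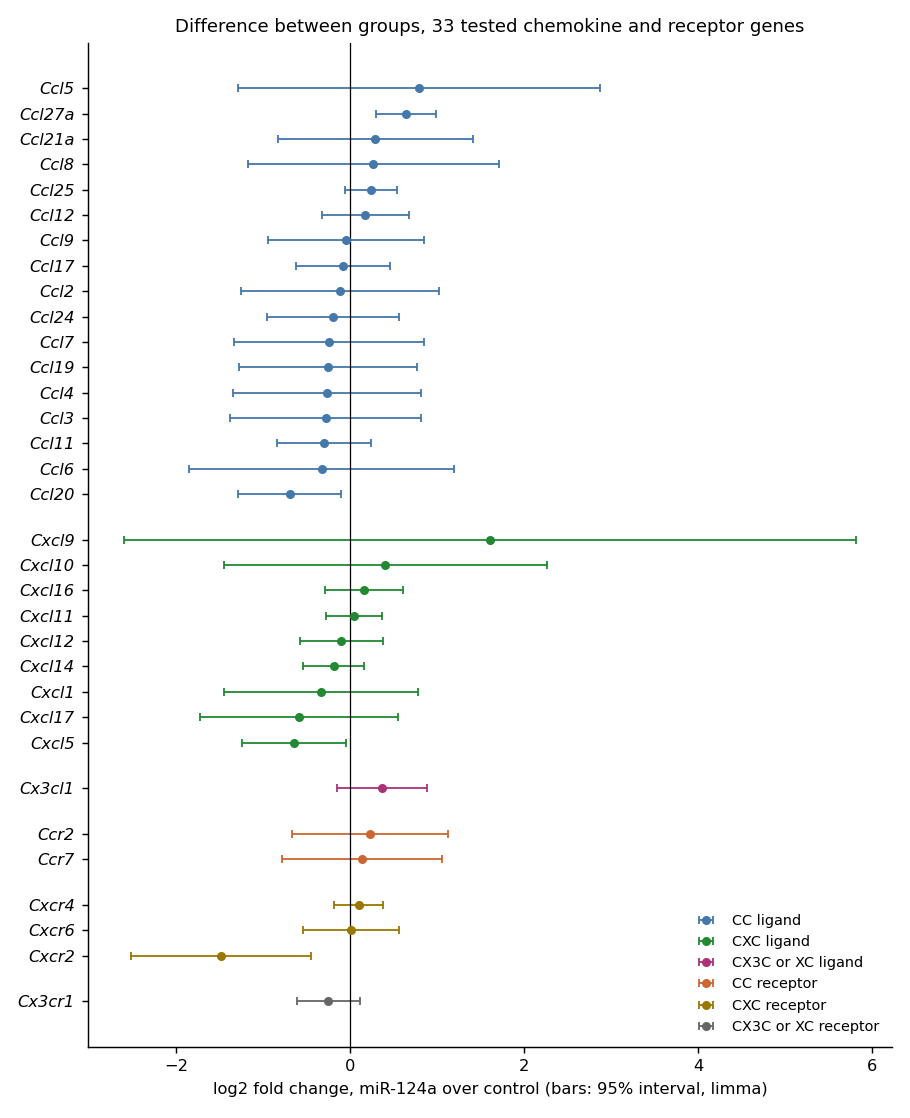
Log2 fold change of miR-124a over control tumours (horizontal axis) for 33 of the 34 tested chemokine and receptor genes, grouped by role; points are limma estimates and bars their 95% intervals, with 3 tumours per group. The bars of 29 genes cross 0, those of Ccl27a, Ccl20, Cxcl5 and Cxcr2 do not, and Cxcl9 has the widest, from -2.60 to 5.81.

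Chemokine genes differed more from tumour to tumour than most genes did. The median SD within groups was 0.51 for the tested members and 0.17 for all genes, and 31 of the 34 lay above the latter. This comparison was not matched for signal level, and several members, such as Ccl19, Ccr7 and Cxcr2, were dim. For 16 of the 34, the 95% interval lay inside a 2-fold change either way. For the other members a 2-fold change up, down or both lay inside the interval and was not excluded. Ccl20, Cxcl5 and Cxcr2 are among these, with intervals that leave out 0.

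The CC ligand Ccl27a had the smallest p among the members. This chemokine is known from the epidermis, where keratinocytes make it and T cells that home to skin respond to it through Ccr10. Its brightest probe (chromosome 4, 41716345 to 41716404, build mm9) read 1.79, 1.71 and 1.49 in control 1 to 3 and 2.18, 2.54 and 2.19 in miR-124a 1 to 3. All 3 miR-124a tumours lay above all 3 control tumours. The log2 fold change was 0.64 ± 0.14 (SE, n = 3 per group), a fold of 1.56, and it did not pass over all genes (limma, adjusted p = 0.0666). It passed in 2 of 16 alternatives. With normexp background correction and quantile scaling it was 0.68 (limma, adjusted p = 0.0251), and a variance trend with robust estimation gave an adjusted p of 0.0348 (limma). In the others it did not pass, with adjusted p up to 0.175 (limma), such as 0.153 with the replicate block.

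The other two probes of Ccl27a gave differences of 0.73 and 0.37, each also without overlap of the groups. The dimmest of the probes shares a run of 50 bases with a probe for Gm20878, and the mouse genome carries near-identical copies of Ccl27a and of the neighbouring Ccl19 and Ccl21a, so the signal may come from more than 1 copy. In RNA from whole tissue, fewer cells of a type and less RNA per cell cannot be told apart, here and in all results that follow. The receptor Ccr10 was not tested. It was above background on 1 control and 1 miR-124a array, at -5.27, -5.84 and -6.36 in control and -5.45, -4.78 and -5.78 in miR-124a tumours. The 12 surface epithelium genes beside it had estimates below 0 in all 12 cases and a median of -0.31, and 0 passed (limma, with 0 at an unadjusted p under 0.05). Their summed level, on the linear scale with the 75th percentile as 1, was 27.2 to 40.9 in control and 22.8 to 32.4 in miR-124a tumours, and its part in the Ccl27a result was not tested.

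Ccl20, which draws dendritic cells and lymphocytes of mucosal surfaces through Ccr6, was the other CC ligand whose groups did not overlap. Its values were -4.28, -3.61 and -4.29 in control and -4.78, -5.06 and -4.43 in miR-124a tumours. The control tumours were the higher ones, with miR-124a 3 only just below control 3. The log2 fold change was -0.70 ± 0.24 and did not pass (limma, adjusted p = 0.138). Normexp with quantile scaling, which draws dim values together, gave -0.14. Ccr6 was not above background on any array.

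Several CXC ligands that carry the sequence glutamate-leucine-arginine before their first cysteines attract neutrophils through Cxcr2, and Cxcr2 and Cxcl5 had the lowest estimates among the receptors and the CXC ligands. Cxcr2 itself (chromosome 1, 74206886 to 74206945, build mm9) read -5.00, -4.19 and -4.44 in control and -6.62, -6.39 and -5.10 in miR-124a tumours. All control values were above all miR-124a values, although miR-124a 3 was close to control 1. The gene was above background on 3 of 3 control and 1 of 3 miR-124a arrays, and it was tested because of the control group, where it was higher. The log2 fold change was -1.49 ± 0.43 (limma, adjusted p = 0.0995), and its size rests in part on the signals of miR-124a 1 and 2, which were not above background. Without miR-124a 3, the one miR-124a array above background, the fitted value was -1.96 (adjusted p = 0.0398). Against the lowest signal above background on the arrays of miR-124a 1 and 2 (mean -5.31), the control mean was 1.70-fold higher. This is no lower bound, because genes not above background could read more than that signal. Examples are Cd8b1 in miR-124a 1 (-5.28) and Fcer2a in miR-124a 2 (-5.27). It also leaves out miR-124a 3. With normexp and quantile scaling the estimate was -0.21.

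Cxcl5, a ligand of Cxcr2 made by epithelial and stromal cells, read -1.38, -1.25 and -1.98 in control and -2.33, -2.41 and -1.80 in miR-124a tumours. The groups overlapped, because miR-124a 3 was above control 3. Its log2 fold change was -0.65 ± 0.25 (limma, adjusted p = 0.161), or -0.39 with normexp. Cxcl1, another Cxcr2 ligand, had -0.79, -2.20 and -1.97 against -2.51, -2.18 and -1.29. The groups overlapped widely, and the log2 fold change of -0.34 ± 0.46 (adjusted p = 0.663) turned to 0.10 without control 1.

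The remaining genes of this axis were too dim to test. Cxcl2 was above background on 2 control arrays and on 0 miR-124a arrays, with -4.75, -5.15 and -6.63 in control and -7.38, -6.64 and -5.95 in miR-124a tumours. Cxcl3, a close relative, and Cxcr1, the second receptor of these ligands, were each above background in control 1 alone. Cxcr1 read -4.28 there and -7.49 to -7.26 in the other 5 tumours. Cxcl15, a neutrophil attractant of lung, was not above background on any array.

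Neutrophil markers were set beside these genes. Of 16 on the list 12 were tested and 0 passed (limma; 1 at an unadjusted p under 0.05), with 4 estimates above and 8 below 0 and a median of -0.36. Their summed level was 57.1 to 62.3 in control tumours and 53.8, 50.2 and 61.7 in miR-124a 1 to 3. Most of this sum was Csf3r, which read 5.36, 5.09 and 5.22 in control and 5.36, 5.38 and 5.30 in miR-124a tumours, so it says little of the other markers. The calgranulin gene S100a8 read 0.04, 0.22 and 0.72 in control and -1.04, -1.85 and 0.53 in miR-124a tumours (log2 fold change -1.11 ± 0.59, adjusted p = 0.268). In this gene miR-124a 1 and 2 were below every control tumour, as they were in S100a9, Ltf, Cd177, Fpr2, Mmp8 and Mmp9. They were not both below in Csf3r, Mpo, Camp, Elane and Stfa1. S100a9, Cd177 and Ltf had estimates of -1.02, -1.15 and -0.70. The median over the tested genes of the log2 signal minus the control mean was -0.25, 0.12 and 0.01 in control 1 to 3. It was -0.62, -0.75 and 0.03 in miR-124a 1 to 3. Csf3r, Mpo, Fpr2, Camp and Elane had estimates from -0.06 to 0.16, and Mmp8, the gene with an unadjusted p under 0.05, was lower in all 3 miR-124a tumours than in any control tumour (-0.82 ± 0.23, limma, adjusted p = 0.0959). Ly6g, the marker that defines mouse neutrophils, was not above background on any array. The part of neutrophils in the Cxcr2 result was not tested.

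**Figure D2:**
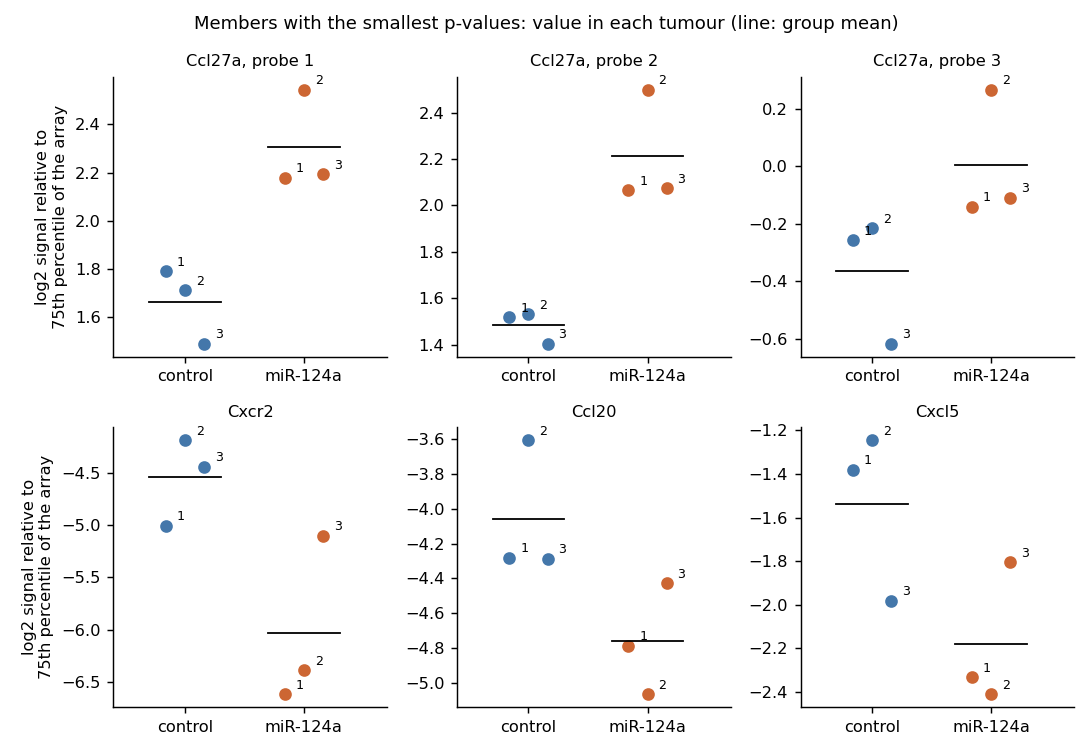
Log2 signal relative to the 75th percentile of the array (vertical axis) in each control (blue) and miR-124a (orange) tumour, numbered by replicate, for the 3 probes of Ccl27a and for Cxcr2, Ccl20 and Cxcl5; lines are group means and each panel has its own scale. The groups do not overlap for Ccl27a, Cxcr2 and Ccl20, and for Cxcl5 the tumour miR-124a 3 (-1.80) lies above control 3 (-1.98).

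Cxcl9 and Cxcl10, ligands of Cxcr3, and the CC ligand Ccl5 stood out for 1 tumour rather than for a group. Cxcl9 and Cxcl10 are induced by interferon gamma and attract activated T and natural killer cells. Cxcl9 read -4.12, -5.63 and -1.63 in control and -2.78, -5.03 and 1.26 in miR-124a tumours. It was above background on 2 control and 3 miR-124a arrays (not in control 2), so it was tested because of the miR-124a group, where its mean was higher. The tumour miR-124a 3 was 2.88 above the next highest, which was control 3, and the other 2 miR-124a tumours lay inside the control range. The log2 fold change of 1.60 ± 1.74 did not pass (limma, adjusted p = 0.579) and was -0.12 without miR-124a 3.

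Cxcl10 had the same high tumour. It read 0.50, -0.39 and 0.31 in control and -0.01, -0.71 and 2.33 in miR-124a tumours, so that miR-124a 3 was 3.55-fold above control 1, the next highest. The log2 fold change was 0.40 ± 0.77 (limma, adjusted p = 0.763), or -0.50 without miR-124a 3. Ccl5, which is made by T cells, natural killer cells and macrophages, had -1.16, -1.95 and -0.90 against -0.94, -2.09 and 1.39. Here too miR-124a 3 was alone above the rest, by 4.89-fold, and the estimate of 0.79 ± 0.86 (adjusted p = 0.579) became -0.18 without it.

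Cxcl9, Cxcl10 and Ccl5 were the 3 tested members for which miR-124a 3 was more than 1 above each other tumour on the log2 scale, where 0.392% of all genes had this pattern. Of these, Cxcl9 was tested because of the miR-124a group, where its mean was higher. A gap of 1 is also reached more readily at the larger spread of the members (median SD within groups 0.51, against 0.17 for all genes). Among the genes not tested, Cxcl13, the attractant of B cells for lymphoid follicles, was above background in miR-124a 3 alone. It read -6.08, -7.48 and -6.12 in control, -6.71 and -6.57 in miR-124a 1 and 2 and -2.83 in miR-124a 3. Its receptor Cxcr5 was not above background in any tumour. Cxcr3 was above background on 1 control and 2 miR-124a arrays, with -5.14, -6.20 and -5.09 against -4.86, -5.37 and -4.29. The highest of these was again miR-124a 3.

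Interferon response genes were high in the same tumour. Of the 25 on the list all were tested and 0 passed (limma; 1 at an unadjusted p under 0.05), with a median log2 fold change of 0.18. In 24 of the 25, all but Cgas, the highest value was in miR-124a 3, which led by more than 1 on the log2 scale in 9. The list score, which is the median over its genes of the log2 signal minus the control mean, was 0.03, -0.06 and 0.04 in control and -0.13, -0.35 and 0.90 in miR-124a tumours. Interferon gamma itself, Ifng, was above background on 2 arrays and was not tested. Its values were -6.45, -7.37 and -5.52 against -5.79, -7.64 and -4.20.

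Markers of cells that make or answer these ligands gave the following. Of 11 natural killer cell genes 6 were tested and 0 passed (limma, with 1 at an unadjusted p under 0.05). Their summed level was 1.83 to 2.92 in control and 2.75 to 3.27 in miR-124a tumours. Most of this sum was Klrb1c, which read 1.11, 0.60 and 0.30 in control and 1.08, 1.45 and 0.90 in miR-124a tumours. The list score was 0.23, -0.32 and 0.04 in control and 0.28, -0.09 and 0.60 in miR-124a tumours. Of 15 T cell genes 8 were tested, and Cd3g, Cd8a, Cd8b1, Foxp3 and Themis were not above background on any array. Of the 8, 3 estimates were above and 5 below 0, with a median of -0.23, and 3 genes had an unadjusted p under 0.05 (limma): Lck, Lat (0.62, adjusted p = 0.111) and Zap70 (-0.68, adjusted p = 0.0675). The kinase gene Lck was the 1 that passed and rose by 0.57 (limma, adjusted p = 0.0357). This call was lost when any 1 of the 6 tumours was left out (limma, adjusted p = 0.0572 without control 3 to 0.135 without miR-124a 2, with estimates of 0.52 to 0.60). The summed T cell level was 2.54 to 2.79 in control and 2.75 to 3.11 in miR-124a tumours. Lck was the largest part of this sum and read -0.11, -0.24 and -0.06 in control and 0.38, 0.47 and 0.45 in miR-124a tumours. The T cell list score was 0.02, 0.02 and -0.07 in control and -0.13, -0.21 and 0.15 in miR-124a tumours. Dendritic cell genes, a list with the class II genes H2-Ab1, H2-Eb1 and Cd74, were tested for 13 of 15 and 0 passed (limma, with 0 at an unadjusted p under 0.05). Their summed level was 62.2 to 71.4 in control tumours and 74.5, 66.0 and 101.3 in miR-124a 1 to 3. Siglech was the largest part of this sum and read 5.75, 5.54 and 5.47 in control and 5.86, 5.71 and 5.59 in miR-124a tumours. In miR-124a 3, H2-Ab1, H2-Eb1 and Cd74 read 4.41, 4.05 and 3.02, and this tumour was highest for 7 of the 13 tested genes. The dendritic cell list score was -0.02, -0.05 and 0.10 in control and 0.04, -0.47 and 0.40 in miR-124a tumours. The part of these cells in the values of miR-124a 3 was not tested.

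The 250 bases before the start of Cxcl9 and Cxcl10 are shown because both genes were high in the tumour with high interferon response genes (RefSeq, build GRCm38.p6, minus strand, chr5:92328080-92328329 for Cxcl9 and chr5:92348890-92349139 for Cxcl10). Capitals mark matches, on either strand, to 3 sets of letters. The interferon-stimulated response element was searched as GAAA, any 2 bases and GAAA, the gamma-activated site as TTCNNNGAA, and the kappaB site as GGG, any 3 bases and TTCC.
Cxcl9: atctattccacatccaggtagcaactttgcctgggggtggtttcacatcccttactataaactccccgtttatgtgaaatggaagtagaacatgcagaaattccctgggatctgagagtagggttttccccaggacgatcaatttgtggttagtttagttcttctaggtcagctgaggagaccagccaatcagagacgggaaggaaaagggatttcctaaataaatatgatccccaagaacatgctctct
Cxcl10: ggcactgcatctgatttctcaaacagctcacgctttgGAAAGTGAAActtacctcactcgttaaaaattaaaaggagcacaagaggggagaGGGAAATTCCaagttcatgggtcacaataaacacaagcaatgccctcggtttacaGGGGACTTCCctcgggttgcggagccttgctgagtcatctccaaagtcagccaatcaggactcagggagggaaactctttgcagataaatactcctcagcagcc
The Cxcl10 window held 1 match to the response element, at -213 to -204 from the start, and 2 to the kappaB letters, at -159 to -150 and -104 to -95. The Cxcl9 window held no match to these letters. Of 32851 promoter windows of this length, 2.98% held the response element letters, 7.02% the gamma-activated letters and 4.65% the kappaB letters. Among 43 windows of 39 member genes the numbers were 3, 3 and 9, and those with the response element letters were Ccl19, Cxcl10 and Cxcl14. Such matches describe the sequence and are not shown to be bound. No window was used for Ccl5 or Cxcl11.

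**Figure D3:**
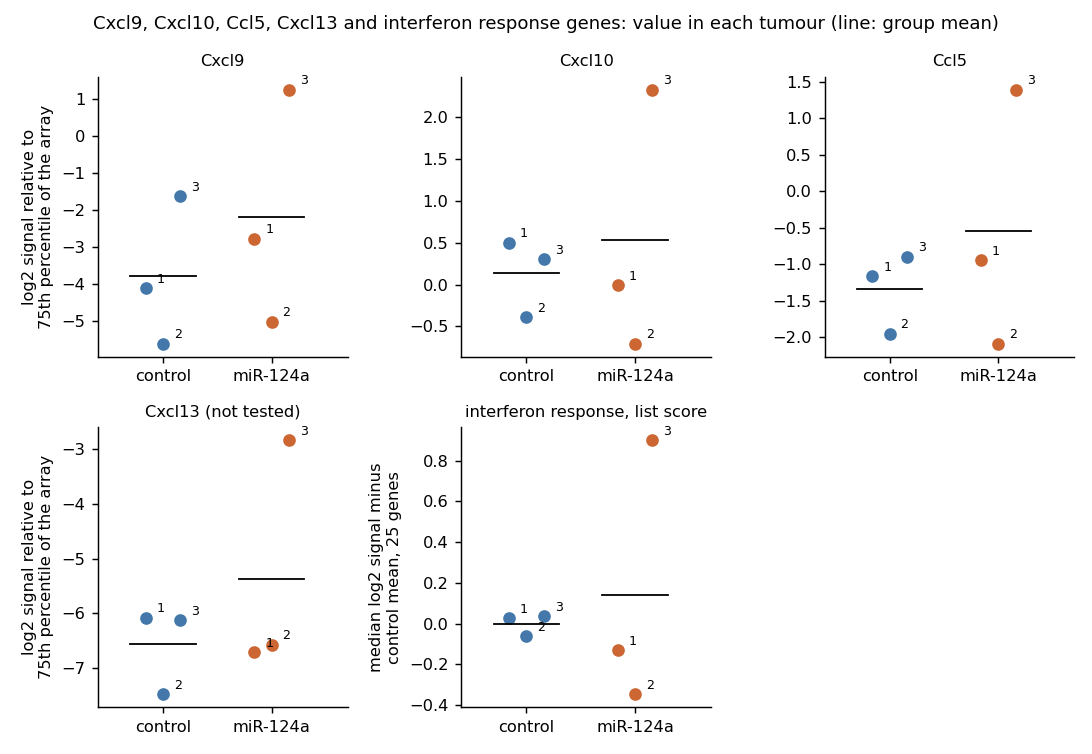
Log2 signal relative to the 75th percentile of the array (vertical axis) in each control (blue) and miR-124a (orange) tumour, numbered by replicate, for Cxcl9, Cxcl10, Ccl5 and Cxcl13, and for the list score of 25 interferon response genes; lines are group means and each panel has its own scale. The tumour miR-124a 3 is the highest in each panel, while miR-124a 1 and 2 lie inside or below the range of the control tumours.

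The third Cxcr3 ligand, Cxcl11, named here after its values were seen, did not share the pattern, and its brightest probe is uncertain. It read 7.34, 7.13 and 6.93 in control and 7.28, 7.20 and 7.05 in miR-124a tumours, with a log2 fold change of 0.04 ± 0.13 (limma, adjusted p = 0.861). Its brightest probe shares runs of at least 20 bases with probes of 6 other genes (Astn1, Elk1, Glrx2, Gm10856, Med16 and Ndor1), the longest of 31 bases. Bases 15 to 34 of the probe recur whole in 4 other probes and are shown, with no part in capitals, because they bear on whether the signal is that of Cxcl11.
Cxcl11 probe: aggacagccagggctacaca
The second Cxcl11 probe, which shared no such run with a probe of another gene on the same strand, read 1.57, 1.28 and 1.23 against 1.62, 1.47 and 1.28, and there too the groups overlapped.

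The genes that draw monocytes did not separate the groups. Ccl2, the main ligand of Ccr2, read 0.56, -0.87 and -0.40 in control and -0.75, -0.76 and 0.45 in miR-124a tumours. Control 1 and miR-124a 3 were the high tumours of their groups, and the log2 fold change was -0.12 ± 0.47 (limma, adjusted p = 0.888), or 0.28 without control 1. Ccl12, a second Ccr2 ligand of the mouse, had -0.10, 0.27 and 0.14 against 0.14, 0.00 and 0.69 (0.17 ± 0.20, adjusted p = 0.615). Ccr2 itself had -3.33, -3.84 and -4.19 against -3.80, -4.07 and -2.82. It was highest in miR-124a 3, and its estimate of 0.23 ± 0.37 (adjusted p = 0.717) was -0.14 without that tumour.

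The macrophage and monocyte list, tested for 18 of 18 genes with 0 passed (limma; 1 at an unadjusted p under 0.05), had a median of -0.01. Its summed level was 81.1 to 106.9 in control and 80.5 to 97.2 in miR-124a tumours. Control 1 was highest for 7 of these genes and miR-124a 3 for 7.

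A further 8 CC ligands were tested and are given by their range. They are Ccl3, Ccl4, Ccl6, Ccl7, Ccl8, Ccl9, Ccl17 and Ccl24, which act mainly on monocytes, eosinophils and T cells. Their log2 fold changes ran from -0.33 for Ccl6 to 0.26 for Ccl8, and their groups overlapped in every case. Ccl11, the eosinophil attractant eotaxin, read -1.40, -1.01 and -1.53 in control and -1.37, -2.03 and -1.43 in miR-124a tumours (-0.30 ± 0.22, limma, adjusted p = 0.415). Its receptor Ccr3 was not above background on any array.

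Among the ligands made steadily in tissue, Cxcl12 and its receptor Cxcr4, which guide stem and progenitor cells, had groups that overlapped. Cxcl12 read 0.91, 0.56 and 1.21 in control and 1.00, 0.55 and 0.82 in miR-124a tumours, a log2 fold change of -0.10 ± 0.20 (limma, adjusted p = 0.761). Cxcr4 read -1.40, -1.08 and -1.13 against -1.02, -1.15 and -1.15. The SD within groups was 0.28 for Cxcl12 and 0.13 for Cxcr4. The estimate for Cxcr4 was 0.10 ± 0.12 (adjusted p = 0.620), with a 95% interval from -0.19 to 0.38 that leaves out a 1.5-fold change either way. Ackr3, the atypical receptor that takes up Cxcl12 and is no member of the families by name, read 1.17, 1.47 and 1.36 against 1.33, 0.86 and 1.11 (-0.24, adjusted p = 0.349).

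Cxcl14, an epithelial chemokine, had 1.76, 1.39 and 1.27 in control and 1.21, 1.28 and 1.34 in miR-124a tumours (-0.19 ± 0.14, limma, adjusted p = 0.425). Cxcl17, a chemokine of mucosal epithelium, had -1.72, -0.36 and -1.05 against -1.65, -2.37 and -0.89 (-0.59 ± 0.47, adjusted p = 0.445). In both the groups overlapped. Cxcl16, which is made as a membrane protein, had -0.96, -1.05 and -1.15 against -0.97, -1.21 and -0.51 (0.16 ± 0.19, adjusted p = 0.611). Its receptor Cxcr6 had -2.86, -3.13 and -2.69 against -2.75, -3.35 and -2.57, with an estimate of 0.00 ± 0.23 (adjusted p = 0.992), and miR-124a 3 was the highest tumour for ligand and receptor alike.

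Ccl19 and Ccl21a, which bring dendritic cells and naive lymphocytes into lymph nodes through Ccr7, had no shared direction. Ccl19 read -4.63, -4.13 and -4.27 in control and -5.28, -4.90 and -3.62 in miR-124a tumours (-0.26 ± 0.42, limma, adjusted p = 0.719), and was above background on 2 of 3 miR-124a arrays. Ccl21a read 0.02, -1.92 and -0.65 against -0.45, -0.70 and -0.53. Control 2 was its low tumour, and the estimate of 0.29 ± 0.46 (adjusted p = 0.715) was -0.25 without it. Ccr7 read -4.45, -4.72 and -3.93 against -3.93, -5.04 and -3.74, an estimate of 0.13 ± 0.38 (adjusted p = 0.847).

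Ccl25, a chemokine of thymus and small intestine, had -0.29, -0.57 and -0.54 in control and -0.29, -0.07 and -0.33 in miR-124a tumours. The tumours of the groups overlapped at control 1, and the log2 fold change was 0.23 ± 0.12 (limma, adjusted p = 0.271). Its receptor Ccr9 was above background on 1 array.

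Cx3cl1, the membrane-bound chemokine of neurons and endothelium, read 3.44, 3.17 and 2.75 in control and 3.18, 3.66 and 3.61 in miR-124a tumours. Its receptor Cx3cr1, a marker of microglia and of resident macrophages, read 1.73, 1.97 and 1.43 against 1.499, 1.45 and 1.42. The ligand had a log2 fold change of 0.36 ± 0.21 (limma, adjusted p = 0.312) and the receptor of -0.25 ± 0.15 (adjusted p = 0.311), and in both the groups overlapped. The second tested probe of Cx3cl1, much dimmer, gave a difference of 0.044. Of the 10 members with 2 or more tested probes, 9 had the same sign of difference in all of them, and Cxcr6 (-0.079 and 0.0044) did not. The list of genes of neurons, a known source of Cx3cl1, had estimates above 0 for 12 of 12 genes, with 0 passed (limma; 7 at an unadjusted p under 0.05) and a median of 0.43. Its summed level was 157.3 to 188.8 in control and 215.5 to 272.8 in miR-124a tumours, and its part in the value of Cx3cl1 was not tested.

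Of the 20 members that were not tested, 10 were not above background on any array at any probe. These were Ccl22, Ccl26 and Cxcl15 among ligands and Ccr1, Ccr3, Ccr4, Ccr6, Ccr8, Cxcr5 and Xcr1 among receptors. The other 10 were above background on 1 to 3 arrays, namely Ccl1, Ccl28, Cxcl2, Cxcl3, Cxcl13, Xcl1, Ccr9, Ccr10, Cxcr1 and Cxcr3. Thus 7 of 18 receptors and 27 of 36 ligands were tested. For several tested ligands, among them Ccl20, Ccl25 and Ccl27a, no receptor named here could be tested.

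Across the members the tumours fell into an order that crossed the groups. The median over tested members of the log2 signal minus the control mean was 0.16, -0.14 and -0.03 in control 1 to 3 and -0.11, -0.41 and 0.51 in miR-124a 1 to 3. The tumour miR-124a 3 was the highest of the 6 for 13 members (38.2%), where it was highest for 7.41% of all genes. Control 1 was highest for 10 members (29.4%, with 11.4% of all genes), and miR-124a 2 was lowest for 11 (32.4%, with 21.3%). The CC receptors Ccr2 and Ccr7 were both highest in miR-124a 3. The pan-leukocyte list shared these high and low tumours. Its list score was 0.28, -0.08 and -0.18 in control and -0.12, -0.40 and 0.25 in miR-124a tumours. Of its 14 tested genes, miR-124a 3 was highest for 7, control 1 was highest for 6 and miR-124a 2 was lowest for 10. The part of leukocytes in the order of the members was not tested.

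**Figure D4:**
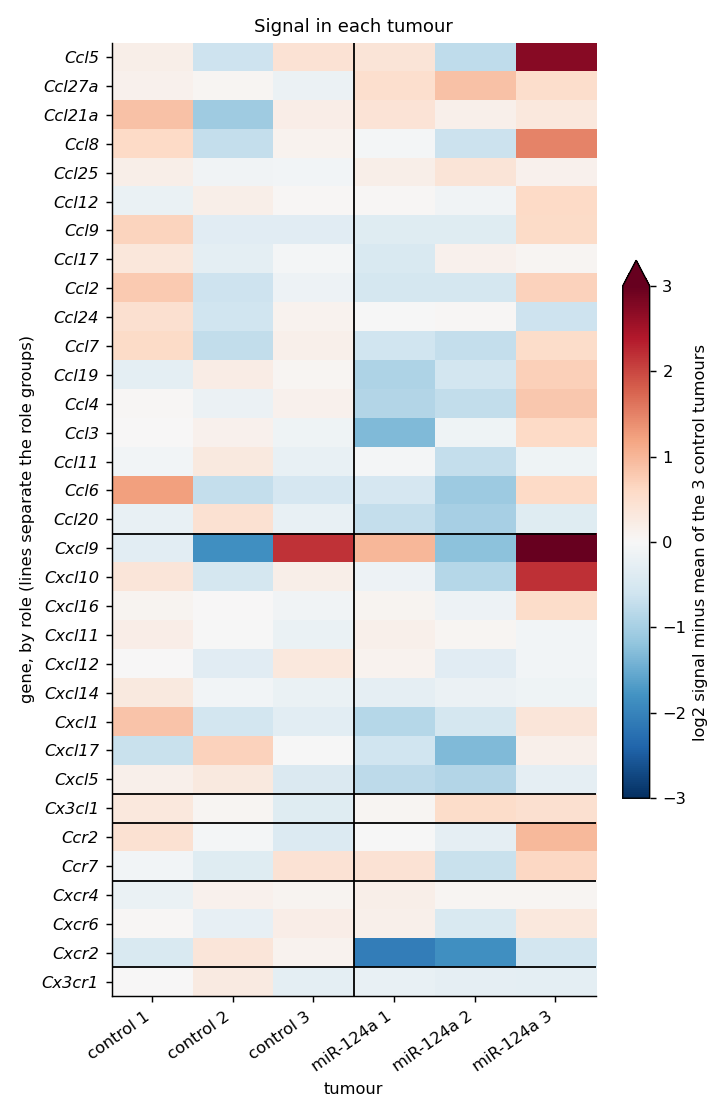
Log2 signal minus the mean of the 3 control tumours (colour, red above and blue below, with values over 3 drawn at the end of the scale) for 33 of the 34 tested members (rows, lines separating CC, CXC and CX3C ligands and CC, CXC and CX3C receptors) in each tumour (columns). The strongest reds are Cxcl9, Ccl5 and Cxcl10 in miR-124a 3, and the strongest blues in the miR-124a columns are Cxcr2 in miR-124a 1 and 2, where it was not above background.

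**Figure D5:**
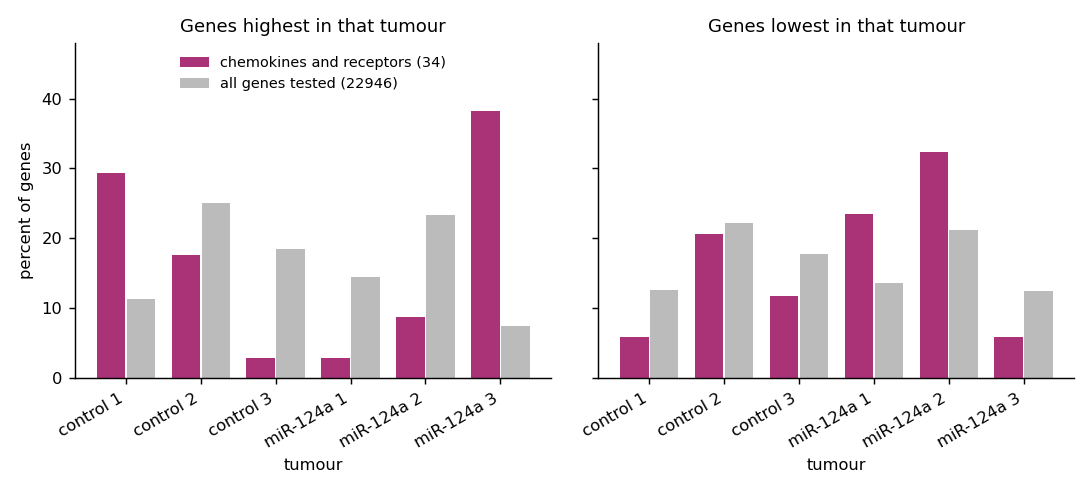
Percent of genes (vertical axis) for which each tumour had the highest (left) or lowest (right) value of the 6, for the 34 tested members (purple) and all 22946 tested genes (grey). Members were highest most often in miR-124a 3 (38.2%) and control 1 (29.4%), and lowest most often in miR-124a 2 (32.4%).

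Genes that work with the chemokine system were described from lists. Among 22 atypical receptors and chemokine relatives 20 were tested and 0 passed (limma; 6 at an unadjusted p under 0.05), with a median of 0.02. The smallest p was that of Ackr1, a receptor of venules and red cells that binds many chemokines and does not signal. It read 0.76, 0.15 and 0.41 in control and 1.20, 1.32 and 1.00 in miR-124a tumours, without overlap (log2 fold change 0.73, adjusted p = 0.0751). Of 32 genes of receptor signalling 31 were tested, 1 rose and 1 fell. Grk3, a kinase that desensitises active receptors, rose by 0.70 (0.59, 0.33 and 0.23 against 1.04, 1.19 and 1.01, limma, adjusted p = 0.0444). Rgs16, which speeds the switching off of G proteins, fell by 0.66 on the log2 scale (1.41, 1.63 and 1.55 against 0.82, 0.83 and 0.97, limma, adjusted p = 0.0326). Neither call held when any 1 of the 6 tumours was left out: the adjusted p (limma) ran from 0.0676 without control 1 to 0.151 without miR-124a 2 for Grk3, and from 0.0654 without control 3 to 0.137 without miR-124a 1 for Rgs16. The estimates then lay between 0.62 and 0.80 for Grk3 and between -0.72 and -0.61 for Rgs16.

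Cytokines that induce chemokines and genes of the NF-kappaB pathway were tested for 22 of 30 and 0 passed (limma; 3 at an unadjusted p under 0.05), with 6 estimates above and 16 below 0 and a median of -0.17. The smallest p was that of Nfkb2, a subunit of the noncanonical pathway (-0.62, limma, adjusted p = 0.0927). Of 15 leukocyte adhesion genes 13 were tested and 0 passed (limma; 1 at an unadjusted p under 0.05), with a median of -0.14. The pan-leukocyte list, tested for 14 of 14, had a median of -0.04 with 0 passed (limma, with 0 at an unadjusted p under 0.05), and its summed level was 11.8 to 16.1 in control and 13.0 to 17.4 in miR-124a tumours. Blood and lymphatic endothelium, fibroblasts, B cells, and mast cells with eosinophils had 0 passed in 14, 6, 12, 8 and 5 tested genes (limma; 1, 2, 4, 3 and 0 at an unadjusted p under 0.05).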

How the data were processed

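Messenger and long noncoding RNA of 6 teratomas was measured on 1-colour Agilent arrays (Cy3), 1 array per tumour. Per the file headers, background was removed from the deposited spot intensity by Agilent Feature Extraction 11.5.1.1. The authors' deposited table, used as an alternative, is on a log2 scale: its columns were the log2 intensity shifted per array, uncentred per probe, with a 75th percentile of 0.01 in every column. No header or label used here names the tool behind it.

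Control spots and 22 outlier probes were left out, spots of a probe were averaged (56605 probes), and each array was scaled by its 75th percentile (278.6 to 315.2). A probe was tested when the 3 arrays of either group all had it well above background, with the brightest such probe per gene. Gene names came from RefSeq GRCm38.p6 where accession or symbol matched, and probe positions are mm9. The comparison of groups used limma 3.58.1 (R 4.3.3; lmFit and eBayes), two-sided and without covariates. P-values were adjusted by Benjamini-Hochberg over all 22946 tested genes, at a threshold of 0.05. The fit was tested on simulated data. Figures used matplotlib 3.10.9. P-values set the difference between groups against the spread of tumours within groups, which eBayes moderates over all genes. They do not separate group from slide row.

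The members, lists and tests were chosen with earlier results of these data known. Values, or background calls for dim genes, are given for the 12 ligands with the smallest p, the tested receptors and a list of 26 ligand and receptor genes. The exception is 1 tested member, which is counted but not reported by name here. Other members are given by range and count. Over all tested genes same-numbered tumours did not deviate together (correlations of -0.155, -0.039 and -0.065), so numbers were not used as pairs. Alternatives were quantile scaling, normexp (offset 50) with quantile scaling, the authors' table, other filters on dim probes, the mean of probes, each probe on its own, a replicate block, variance trend with robust estimation, array weights and leaving out each tumour.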

Additional observations from a re-analysis of the deposited data

How the results depend on the processing

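No chemokine or receptor gene passed in 13 of the 16 alternatives. With normexp and quantile scaling 1 passed, and with a variance trend and robust estimation 1 passed, in both cases Ccl27a. Leaving out a tumour gave 0 to 1, where the 1 was Cxcr2 without miR-124a 3, with no miR-124a array above background left. Over all genes the count of 750 (638 lower) became 1542 (963 lower) with normexp, 1730 (1354 lower) with trend and robust estimation, 81 without a filter on dim probes, 1 with the replicate block, and 0 to 379 without 1 tumour. The replicate block changed no call of a member. With it the SE was 0.46 for Cxcl9 in place of 1.74, and 0.52 for Ccl5 in place of 0.86 (limma, adjusted p = 0.187 and 0.410). For others, such as Ccl20, it rose (0.28 in place of 0.24). Over all genes same-numbered tumours did not deviate together, and whether the numbers stand for pairs was not tested further. The receptor median ran from -0.16 to 0.23 without 1 tumour.

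Of the 24 named members, 9 kept their sign in all 16 alternatives, and Cxcr2 did in the 15 in which it could be fitted. Cxcr6, at 0.00, was -0.016 with quantile scaling, -0.00048 with normexp and -0.038 with the mean of its probes. Without 1 tumour the ranges that crossed 0 were -0.16 to 0.23 for Cxcr6, -0.12 to 3.03 for Cxcl9, -0.50 to 1.02 for Cxcl10 and -0.18 to 1.56 for Ccl5. They were -0.52 to 0.28 for Ccl2, -0.69 to 0.10 for Cxcl1, -0.0026 to 0.16 for Cxcr4 and -0.25 to 0.72 for Ccl21a. For Ccr2 and Ccr7 they were -0.14 to 0.48 and -0.12 to 0.53. For Ccl12, Ccl19, Cxcl12 and Cxcl16 they were -0.036 to 0.31, -0.75 to 0.079, -0.27 to 0.055 and -0.035 to 0.31. The cause of these turns was not tested beyond which tumour was left out. With 3 tumours per group and members that varied this much, small differences could have been missed. For dim genes such as Cxcr2 and Ccl20 the size of a fold depends on the background correction. The calls of Lck, Grk3 and Rgs16 were also lost with the replicate block (adjusted p = 0.151, 0.147 and 0.138, limma) and with no filter on dim probes (0.0771, 0.0941 and 0.0725), and that of Lck with the mean of its probes (0.0619).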
